A study of Caenorhabditis elegans with 48 samples.

Results

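EFL-1 is the E2F-like transcription factor with the broadest effects in Caenorhabditis elegans, and its binding in the germline was compared here with its binding in the L1 soma. The comparison rests on 4 anti-GFP ChIP-seq libraries from whole animals. Strain YL445 expresses EFL-1:GFP:FLAG from the pie-1 promoter, which is active in the germline, and was collected as young adults (replicates 2 and 3). Strain YL424 expresses the same fusion from the efl-1 promoter and was collected as L1 larvae (replicates 1 and 2), which consist almost wholly of somatic cells. Both strains are unc-119(ed3) mutants that carry unc-119(+) on the transgene, and each is 1 transgenic line that also keeps its own untagged efl-1 gene. Tissue, promoter, stage and strain change together between them and cannot be told apart. The titles of the 4 libraries carry 4 different dates, whose meaning the labels do not give.

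E2F proteins bind DNA as a heterodimer with a DP partner, which in this animal is DPL-1. The pair recruits the Rb-like pocket protein LIN-35 and belongs to the DRM complex, a conserved assembly that represses cell-cycle and germline genes in somatic cells. In the germline the same pair is known for a role in oogenesis and early embryonic polarity. HPL-2 is a heterochromatin protein of the Hp1 family that acts in the same genetic pathway, SynMuv B.

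A peak is a stretch in which ChIP reads exceeded input reads according to PeakSeq, and its q-value is the false discovery rate that program assigned to it. All deposited peaks were used, and their q-values reached 0.01. The germline lists held 4018 peaks (replicate 2) and 7074 peaks (replicate 3), and the somatic lists held 1588 peaks (replicate 1) and 4540 peaks (replicate 2). The 19 other libraries of the series held between 558 and 7556 peaks. A site is a merged region with a peak of both replicates overlapping by at least 10 bp. There were 2742 germline and 1457 somatic sites. They formed 3114 regions with a site in either tissue, against 5868 regions with a site of any strain in the series. The deposited files hold no read counts, and the read numbers that the study lists for its libraries were not used here. Every count below is a count of called peaks, and a missing peak does not show that the factor was absent.

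With the deposited lists, more EFL-1 sites were called in the germline than in the L1 soma, and most somatic sites were also germline sites. The numbers depend on the lengths of the lists: with lists of equal length 1311 regions held a germline and 1227 a somatic site, and 56.3% of the latter were shared. A region is called shared when it holds a site of both tissues, germline only when neither somatic library has a peak there, and soma only when neither germline library has one. Of the 3114 regions, 1069 were shared, 1109 were germline only and 137 were soma only. The remaining 799 regions lie between the classes, since a site of 1 tissue met a peak in the other tissue that did not make a site. The shared regions were 73.7% of the 1450 regions with a somatic site (95% Wilson interval 71.4 to 75.9) and 39.1% of the 2733 regions with a germline site (37.3 to 41.0). The germline-only share was 40.6% of regions with a germline site (38.8 to 42.4), and the soma-only share was 9.45% of regions with a somatic site (8.05 to 11.1). These intervals, and all those below, cover counting error only.

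**Figure D1:**
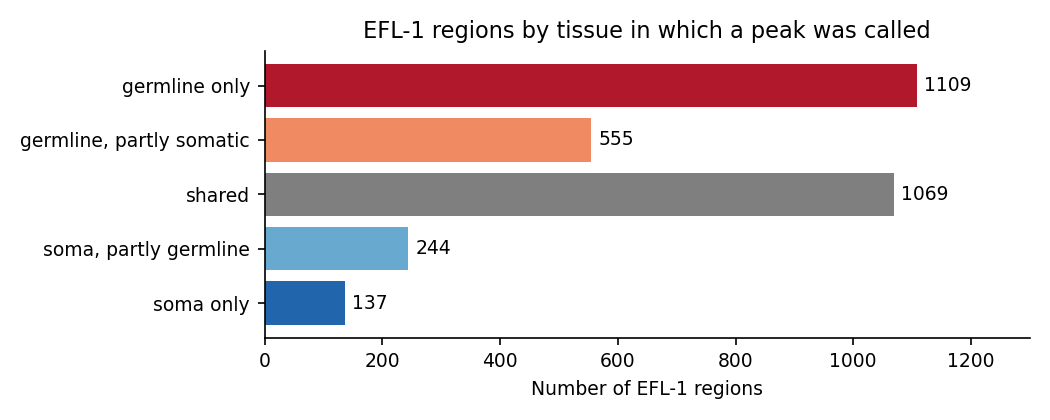
Number of EFL-1 regions (horizontal axis) in each of the 5 classes (vertical axis), from 2 germline and 2 somatic libraries. The 1109 germline-only and 1069 shared regions are the long bars, and the 137 soma-only regions are the shortest.

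The intermediate regions came mostly from the longer peak list of each tissue. Of the 555 germline sites with a partial somatic signal, 538 met a peak of somatic replicate 2 alone and 16 met a peak of somatic replicate 1 alone. Of the 244 somatic sites with a partial germline signal, 224 met a peak of germline replicate 3 alone and 12 met a peak of germline replicate 2 alone. The germline-only number rests on both germline libraries: it was 4423 without germline replicate 2 and 2287 without germline replicate 3. The soma-only number was 1875 without somatic replicate 1, 372 without germline replicate 3 and 247 without somatic replicate 2.

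List length moved the class numbers. When each library was reduced to its 1588 peaks with the smallest q-values, fewer regions held a germline site. Of the regions with a germline site 40.8% were germline only, with 535 regions, and of those with a somatic site 31% were soma only, with 380 regions. When absence was instead judged from all deposited peaks, the reduced lists gave 401 germline-only and 56 soma-only regions. The soma-only number thus stood above or below that of the full lists according to how absence was judged, and the germline-only number below it in both.

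The shorter list of each tissue overlapped its own replicate more than it overlapped either list of the other tissue. In the soma, 92.2% of the 1588 peaks of replicate 1 met a peak of replicate 2 (95% Wilson interval 90.8 to 93.4). The same peaks met germline replicate 3 in 83.3% and germline replicate 2 in 69.2%. In the germline, 71.9% of the 4018 peaks of replicate 2 met a peak of replicate 3 (70.5 to 73.3), and 42.6% met a peak of somatic replicate 2, the longer somatic list. The 10 bp minimum had little bearing on the sites, because the median overlap of replicate peaks was 236 bp in the germline and 372 bp in the soma. Just outside that minimum were 62 germline and 6 somatic pairs of peaks with 1 to 9 bp in common, and just inside it were 60 and 1 pairs with 10 to 19 bp.

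Few germline-only regions bordered a somatic EFL-1 peak. Overlap is excluded by definition, and no distance for random positions was computed for comparison. The median distance from a germline-only region to the nearest somatic EFL-1 peak was 4215 bp, and 499 of 1109 lay more than 5000 bp away. Only 15 lay within 100 bp, of which 4 touched a somatic peak by less than 10 bp. For the soma-only regions the median distance to the nearest germline peak was 3136 bp, with 5 of 137 within 100 bp.

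The sequences below show what the study's own motif search found at regions of the 3 classes. They come from the list of motif occurrences that accompanies the study, are read on the strand given there, and are limited to chromosomes II, III, IV and X. For each motif, the regions of the class with the smallest q-values are shown among those whose listed stretch holds the letters named here. The first set comes from a motif that, by its place in the study's list, is the one named T-blocks there, shown where it holds E2F-like letters at germline-only regions: C05C10.5 (chrII:9938611-9939384), puf-3, a Pumilio-family RNA-binding protein (chrIV:13511963-13512643), and glp-1, the Notch receptor of germline stem cells (chrIII:9091290-9091832). Capitals mark TTTCCCGC or TTTGGCGC.
C05C10.5: aatgaaaaaatcagaatTTTCCCGCgcata
puf-3: aaataaaaaatccaaaaTTTCCCGCgcaaa
glp-1: taaaactcaaaataaatTTTGGCGCcgtgc

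The second set, from the motif named germline E2F in that list, also lies at germline-only regions, and its capitals mark a GCGC core joined to TTTAA. The regions are those at perm-1, an eggshell permeability gene (chrII:7880138-7881314), gmn-1, the geminin homolog that inhibits replication licensing (chrIII:12225092-12225606), and F35C5.1 (chrII:12879953-12881023).
perm-1: aatgcagccatGCGCCTTTAAtaccgtatc
gmn-1: tttcgaaccctGCGCCTTTAAatttaccgt
F35C5.1: aatcagggcatGCGCCTTTAAggtacggta

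The third set shows shared and soma-only regions, whose listed motifs hold GCGCG or its reverse complement CGCGC in capitals. The shared regions are those at cdc-48.1, an AAA ATPase of protein degradation (chrII:10562856-10563904), and eelo-2 (chrIV:17249544-17250288). The soma-only regions are those at C24D10.4 (chrIV:5160191-5160564) and mrps-9, a mitochondrial ribosomal protein (chrIII:8265723-8266011).
cdc-48.1, shared: ataaagcaacCGCGCcctaacgtcagaat
eelo-2, shared: aaaatgcaaGCGCGCtccattgacgcaga
C24D10.4, soma only: atcttgtcaatggaGCGCGCttacgcagc
mrps-9, soma only: tgtttgtcaatggaGCGCGaatgcatcac

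An A-rich stretch stands before the E2F letters in the first set. Of the 101 listed occurrences of the T-block motif at the study's germline-specific sites, 15.8% held an E2F spelling. The 4 spellings searched on both strands were TTTCCCGC, TTTGGCGC, TTTCGCGC and TTTGCCGC. Of the 40 occurrences of the germline E2F motif, 52.5% held GCGC, any base, TT, any base and AA in a row. GCGCG or its complement was held by 50.3% of 153 occurrences in the first motif of the study's broadly bound sites, called common here. In the first motif of its soma-specific sites, called somatic here, the share was 43.4% of 53. By their places in the study's list, both are named somatic E2F there. The study drew these motifs from sites it had already sorted by tissue, so their division among classes is a description. It searched only sites near a gene start, and a random part of the broadly bound ones. Regions outside the searched sites could not be listed, so the counts are not motif frequencies of a class. On chromosomes II, III, IV and X the T-block motif of the germline-specific sites was listed at 48 of 753 germline-only regions. It was listed at 1 of 692 shared and 0 of 86 soma-only regions. The T-block motif that the study listed for its broadly bound sites was at 159 shared, 1 germline-only and 0 soma-only regions. The somatic E2F motif of the broadly bound sites (common) was listed at 88 shared and at 0 germline-only regions. The somatic E2F motif of the soma-specific sites was listed at 5 soma-only and 3 shared regions. It was also listed at 22 somatic regions with a partial germline peak. The share of all promoters that hold these letters could not be had without a genome.

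Other libraries of the series, which took no part in defining the regions, had peaks at them in the pattern of their own tissue. Germline DPL-1 had a peak at 30.8% (replicate 1) and 48.1% (replicate 4) of the germline-only regions, and at 5.84% and 13.1% of the soma-only regions. Somatic DPL-1 had a peak at 6.22% (replicate 1) and 3.52% (replicate 2) of the germline-only regions, and at 97.1% and 86.9% of the soma-only regions. The shares of the tissues did not overlap for either class. LIN-35 from the pie-1 promoter had a peak at 21.1% and 10.6% of germline-only regions and at 1.46% and 0.73% of soma-only regions. LIN-35 from the mex-5 promoter, the second germline construct, had a peak at 20% and 6.13% of germline-only regions and at 7.3% and 0% of soma-only regions. Somatic LIN-35 had a peak at 5.41% and 6.85% of germline-only regions and at 63.5% and 67.2% of soma-only regions.

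EFL-1 in the intestine of L1 larvae, expressed from the ges-1 promoter, rarely had a peak at the germline-only regions. Its share was 0.812% (replicate 2) and 0.271% (replicate 3) there, against 38.7% and 26.3% of soma-only and 90.9% and 80.7% of shared regions. Its lists were short, with 1988 and 1249 peaks. The intestinal libraries with the longest lists, DPL-1 replicate 1 (7556 peaks), LIN-35 replicate 1 (7283) and HPL-2 replicate 1 (6960), had a peak at 12.8%, 18.2% and 14.6% of the germline-only regions. Those are the highest shares at germline-only regions among the 13 L1 libraries.

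**Figure D2:**
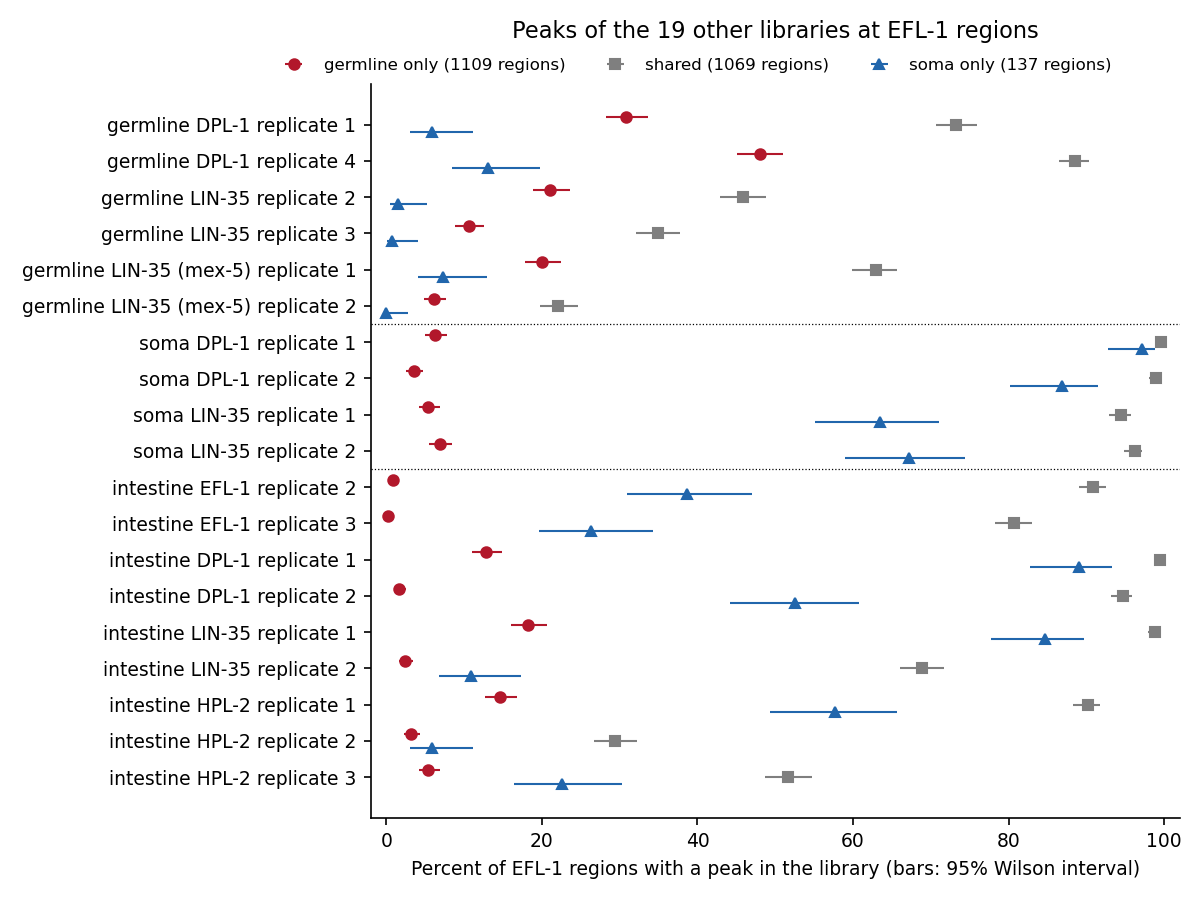
Percent of germline-only, shared and soma-only EFL-1 regions (circles, squares and triangles) with a peak in each of the 19 libraries that did not define the regions, with 95% Wilson intervals; dotted lines part germline, soma and intestine. Germline-only shares exceed soma-only shares in all 6 germline libraries, and the reverse holds in all 13 L1 libraries.

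For each library the percent of germline-only regions with a peak minus that of soma-only regions with a peak was taken and averaged over the libraries of a strain. The mean was 18 ± 10.7 percentage points (SD, n = 3 strains) in the germline and -50.1 ± 24.4 (SD, n = 6 strains) in L1 larvae. The difference of 68.1 points gave p = 0.0238 in an exact permutation test over strains (two-sided), the smallest value that 84 arrangements allow. It was positive in 6 of 6 germline libraries and negative in 13 of 13 L1 libraries. Over libraries, germline exceeded soma by 91.2 points (exact permutation p = 0.00952, adjusted 0.00952) and intestine by 54.6 points (exact permutation p = 0.0004, adjusted 0.000799). Libraries of a strain share their line, so the test over strains is the one to read. List length moves with these shares within a tissue, and its part in them was not tested.

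Germline DPL-1 had a peak at most shared regions and at a smaller share of germline-only regions, a difference between sites that was described and not tested. Both germline DPL-1 libraries had a peak at 70.3% of shared and at 25.0% of germline-only regions, and neither had one at 8.33% of shared and 46.1% of germline-only regions. Shared regions were longer, with a median span of 697 bp against 374 bp for germline-only and 382 bp for soma-only regions. The part of length in the shares of this paragraph was not tested. In the soma the partner was seen nearly throughout: both somatic DPL-1 libraries had a peak at 98.7% of shared and 86.1% of soma-only regions. The DPL-1 lists held 1690 and 3246 peaks in the germline (replicates 1 and 4) and 4140 and 3394 in the soma (replicates 1 and 2). The part of list length in this difference between tissues was not tested. Both germline LIN-35 libraries of the pie-1 construct had a peak at 25.4% of shared and 6.94% of germline-only regions, while both somatic LIN-35 libraries had one at 93.1% of shared and 56.2% of soma-only regions. At 71.8% of the 1109 germline-only regions none of the 13 L1 libraries had a peak. At 76.6% of the 137 soma-only regions none of the 6 other germline libraries had one. No shared region was without a peak in the 13 L1 libraries, and the median shared region had one in 11 of them.

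The strength of a peak, given as -log10 of its q-value, was lower in both single-tissue classes than at shared regions. In germline replicate 2 the median was 8.30 at shared and 4.01 at germline-only regions, and in germline replicate 3 it was 22.1 and 10.3. In somatic replicate 1 the median was 13 at shared and 3.24 at soma-only regions, and in somatic replicate 2 it was 85.0 and 16.2. The quartiles of soma-only and shared regions did not overlap in either somatic library, whereas those of the germline classes did overlap in both germline libraries. Values of different libraries are not on 1 scale, since q depends on the number of reads.

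With the deposited lists, strong germline sites were often germline only, whereas none of the strongest somatic sites was soma only. Absence was judged against somatic lists of 1588 and 4540 peaks for germline sites. For somatic sites it was judged against germline lists of 4018 and 7074 peaks. The rank groups were not repeated with lists of equal length. Sites were ranked by the larger q-value of their replicates and divided into 5 rank groups of about equal size. Among the 547 strongest germline sites, 24.9% were germline only (95% Wilson interval 21.4 to 28.7) and 61.4% were shared. Among the 546 weakest, 59.5% were germline only (55.4 to 63.6) and 15% were shared. In the strongest rank group of somatic sites 0 of 290 were soma only, which allows a share of up to 1.31% (upper Wilson bound), and 98.3% were shared. In the weakest rank group 22.4% were soma only (18 to 27.6).

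**Figure D3:**
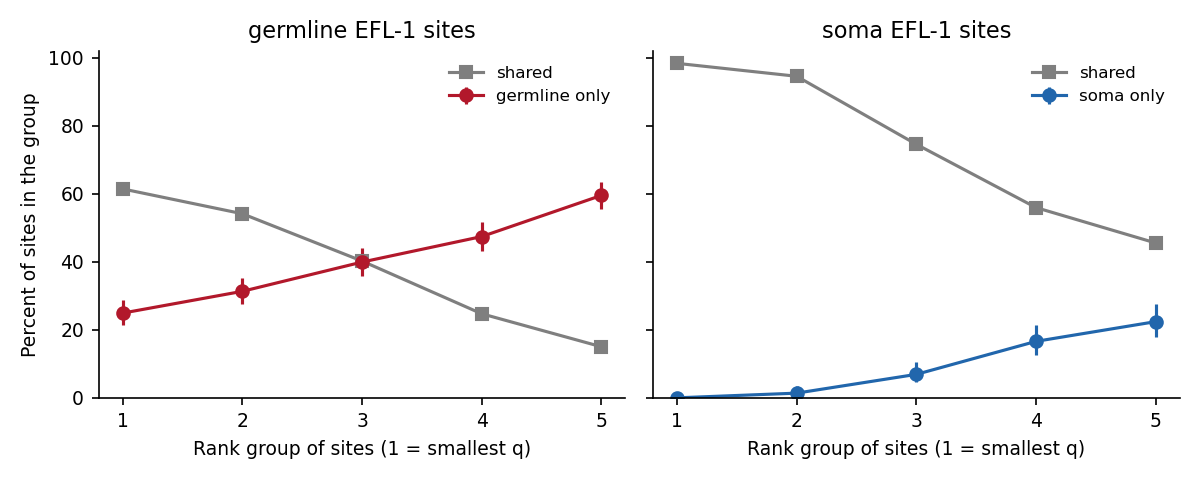
Percent of germline (left) and somatic (right) EFL-1 sites that were shared (squares) or bound in that tissue only (circles, 95% Wilson intervals), by rank group of q-value (1 to 5, smallest first). With the deposited lists, which differ in length, germline-only sites are 24.9% of the strongest germline group, whereas 0 of 290 of the strongest somatic sites are soma only.

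The smaller DPL-1 share at germline-only regions was also seen at like rank, where region length was not matched. In the strongest rank group of germline sites, germline DPL-1 replicate 1 had a peak at 98.5% of shared and 93.4% of germline-only sites. In the middle group these shares were 57.3% and 30.7%, and in the weakest group 30.5% and 5.85%. Germline DPL-1 replicate 4 had a peak at 100% of both classes in the strongest group, and at 59.8% and 21.8% in the weakest. Somatic DPL-1 replicate 1 had a peak at 9.56% of germline-only sites in the strongest group and at 4.62% in the weakest.

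Peaks were wider in the soma than in the germline over the whole lists, and at shared regions the libraries of the tissues overlapped in width. The median width of all peaks was 194.5 bp and 232 bp in germline replicates 2 and 3, and 373.5 bp and 401 bp in somatic replicates 1 and 2. At the 950 shared regions with 1 peak in each of the 4 libraries, the mean somatic width exceeded the mean germline width in 64.9%, with a median ratio of 1.18. Both somatic peaks were wider than both germline peaks at 314 of these regions. Within a class the widths of the libraries differed as well: at all 1069 shared regions the median was 309 bp in germline replicate 2, 535 bp in germline replicate 3, 412 bp in somatic replicate 1 and 513 bp in somatic replicate 2. Germline replicate 3 was thus the widest there. With 2 libraries on each side an exact permutation test cannot go below p = 0.333, so widths were not tested.

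At shared regions the germline and somatic peaks were centred close to each other. Over the 950 regions the median distance between peak centres was 46.5 bp between the germline replicates and 25.5 bp between the somatic replicates. Between tissues it ranged from 33.5 bp (germline replicate 2 and somatic replicate 1) to 60 bp (germline replicate 3 and somatic replicate 1). Both distances of germline replicate 3 from the somatic libraries (60 and 57.5 bp) exceeded those between replicates, and both distances of germline replicate 2 (33.5 and 35.25 bp) lay between them. The order of strength was kept much less well between tissues than within one. Spearman's rho of -log10 q across these regions was 0.886 between germline replicates and 0.918 between somatic replicates, and 0.383 to 0.467 between a germline and a somatic library. Pearson's r was 0.922, 0.847 and 0.252 to 0.358 in the same order. Replicates of a tissue share their strain and stage, and regions are not independent replicates, so these values are descriptions.

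Shared regions were rare on the X chromosome, and single-tissue regions were not as rare. X held 15 of 1069 shared regions, or 1.40% (95% Wilson interval 0.852 to 2.30). It held 85 of 1109 germline-only regions, or 7.66% (6.24 to 9.38), and 9 of 137 soma-only regions, or 6.57% (3.49 to 12.0). The interval of the shared class overlapped neither of the others. Of the peaks in each EFL-1 library, 8.86% and 15.5% were on X in the germline and 4.85% and 13% in the soma, with the higher value in the longer list each time. With lists of equal length X held 0.579% of shared, 3.93% of germline-only and 5% of soma-only regions. With q below 0.001 the shares on X were 0.901%, 6.77% and 3.77% in the same order. On chromosome I soma-only regions were 27% of their class (20.3 to 35), and germline-only regions were 16% (13.9 to 18.2).

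**Figure D4:**
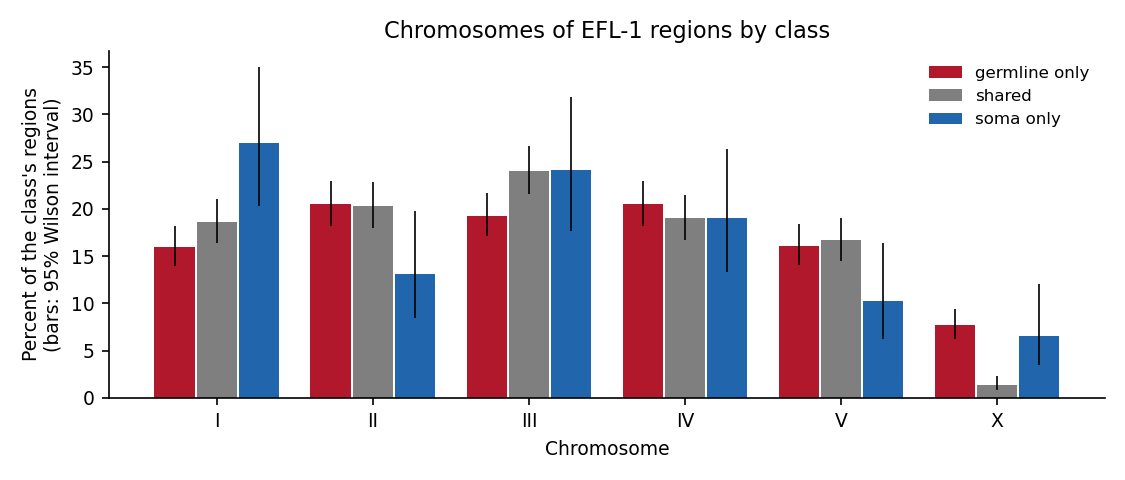
Percent of the germline-only, shared and soma-only EFL-1 regions (red, grey and blue bars, 95% Wilson intervals) on each chromosome. On X the shared class stands at 1.40%, below germline only (7.66%) and soma only (6.57%).

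Part of the excess on chromosome I lies at its right end. The last 100 kb before the end of the outermost peak held 4 soma-only regions, which are the 4 with the smallest q-values of the class, and 0 germline-only or shared regions. The strongest, at 15035726 to 15036145, had q-values of 9.37e-31 and 1.51e-152 in somatic replicates 1 and 2. It had a peak in 4 of the 4 other somatic and in 0 of the 6 other germline libraries. The soma-only region at 15033888 to 15034269 had a peak in germline DPL-1 replicate 4. The stretch also held 1 somatic site with a partial germline signal, at 15013804 to 15014217, with 1.58e-11 in germline EFL-1 replicate 2. None of the 4 soma-only regions overlapped a site with an assigned gene.

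Genes were placed next to regions through the study's site assignments, taken for names and transcript starts only and leaving out chromosome V, where coordinates did not coincide. A gene could be placed at 824 of 891 shared (92.5%), 226 of 930 germline-only (24.3%) and 87 of 123 soma-only regions (70.7%). The low germline-only share follows from those assignments, which cover mainly sites with more than 1 factor: the median -log10 of the class q-value was 9.77 at placed and 3.33 at the other germline-only regions. The region covered the start of an assigned transcript in 81.9% of placed shared, 56.6% of placed germline-only and 55.2% of placed soma-only regions. Shared regions were also longer, and the part of length in these shares was not tested. In all 2207 genes were placed, of which 54.5% lay next to a shared, 12.6% next to a germline-only and 4.94% next to a soma-only region, and 17.3% and 12% next to germline and somatic sites with a partial signal of the other tissue. These shares are the background for the lists that follow. The study's germline-specific sites, which are among those assignments, required germline DPL-1 and excluded somatic DPL-1. Peaks of the other libraries at placed germline-only regions are therefore partly fixed by the placement and give no independent support. Genes with near-identical copies, such as egg-1 and egg-2, egg-4 and its copy, puf-3 and puf-11 or puf-6 and puf-7, share sequence, and how the authors placed such reads was not tested.

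The placed genes of the eggshell and of fertilization were bound by EFL-1 almost wholly in the germline. Of 14 placed members of 22 listed, 13 lay next to a germline-only region and 1 next to a shared region, so 92.9% against the background of 12.6%. At cpg-2, a chondroitin proteoglycan of the eggshell, the q-values were 1.30e-82 and 1.80e-186 in germline replicates 2 and 3, with no peak in either somatic library (chrIII:7101764-7104413). At rme-2, the yolk receptor of oocytes, they were 1.39e-62 and 2.64e-145, again with no somatic peak (chrIV:5469697-5470860). At egg-1, an oocyte surface protein needed for sperm entry, they were 4.46e-60 and 3.20e-135 (chrIII:5727725-5728493). In all 3 cases both germline libraries had a peak, and the merged region covered the transcript start. The chitin synthase gene chs-1 had 1.57e-43 and 1.55e-76, egg-4, an oocyte protein of the egg-to-embryo transition, had 6.15e-62 and 5.87e-123, and the lectin-domain gene clec-88 had 1.68e-54 and 3.66e-153. The weakest of the 13 was gna-2, an enzyme of amino sugar synthesis, with 3.68e-06 and 7.80e-17. None of the 13 regions had a peak in any of the 13 L1 libraries, and each had a peak in 1 to 6 of the 6 other germline libraries (median 4). The placement itself selects in part for such a pattern, so these counts are a description. The exception was clec-87, a shared region with q-values of 2.25e-23 and 4.50e-128 in the germline and 4.63e-34 and 7.57e-133 in the soma.

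Regulators of maternal RNA and of embryonic polarity also lay mostly next to germline-only regions. Of 24 placed members of 38 listed, 19 lay next to a germline-only region (79.2%), 1 next to a shared region and 0 next to a soma-only region. Germline-only regions did not account for all members: 5 of the 24, pie-1, zif-1, ccr-4, skn-1 and ntl-2.1, lay next to germline sites with a partial somatic signal (20.8% against 17.3%), with skn-1 also next to a somatic site with a partial germline signal and ntl-2.1 also counted among the 19. At mex-1, a zinc-finger protein that regulates maternal RNAs, the q-values were 1.24e-73 and 8.11e-154 in germline replicates 2 and 3 (chrII:11968107-11969071). At par-3, a PDZ protein of the anterior cortex, they were 8.89e-61 and 4.35e-152 (chrIII:5663431-5664222). Neither had a somatic EFL-1 peak, and mex-1 had a peak in 1 of the 4 other somatic libraries while par-3 had none. Pumilio-family genes made up 6 of the 19: puf-4, puf-11, puf-5, puf-3, puf-7 and puf-6, in the order of their class q-values from 1.39e-48 to 2.79e-19. The Notch receptor gene glp-1, assigned with low confidence, had 1.37e-19 and 6.72e-49, and oma-1, needed for oocyte maturation, had 5.26e-35 and 2.03e-74. The shared member was par-5, a 14-3-3 protein, with 6.66e-40 and 1.18e-130 in the germline and 9.55e-21 and 1.45e-161 in the soma.

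Some loci are carried by transgenes of the series. The mex-5 promoter drives LIN-35 in 1 of the germline strains, and the germline-only region at mex-5 and rec-8 (chrIV:13353113-13355553) had EFL-1 q-values of 4.64e-55 and 1.00e-132. It also had a peak in all 6 other germline libraries, of which 4 come from strains without that promoter. The region at pie-1, whose promoter drives germline EFL-1, had 1.90e-77 and 1.65e-87 in the germline and 3.68e-06 in somatic replicate 2 alone, which puts it among the intermediate regions. The region at unc-119, the marker in every strain, was shared, with 7.88e-06 and 2.50e-136 in the germline and 2.80e-06 and 2.12e-29 in the soma. The part of the transgene copies in these values was not tested.

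Small RNA genes were divided among the classes. Of 15 placed members of 33 listed, 6 lay next to a germline-only region (40.0% against the background of 12.6%). Another 4 lay next to a shared region (26.7% against 54.5%). At glh-2, a Vasa-like helicase of P granules, the q-values were 6.41e-63 and 1.31e-136 in germline replicates 2 and 3. At csr-1, the Argonaute of a 22G small RNA pathway, they were 6.29e-39 and 7.55e-121 (chrIV:7957910-7960145). Neither gene had a peak in any L1 library, which the placement partly selects for. The Argonaute genes wago-1 and wago-2 had 5.09e-17 and 5.57e-08 in germline replicate 2, also without an L1 peak. At ego-1, an RNA-dependent RNA polymerase, EFL-1 had 2.20e-08 and 1.22e-30 in the germline and no peak in the soma, but 8 of the 13 L1 libraries of the other factors or the intestine had a peak there. The dsRNA-binding protein gene rde-4 differed from these, with no peak in germline replicate 2, 2.85e-18 in germline replicate 3 and 1.98e-37 and 9.69e-97 in the soma.

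Meiosis genes lay next to germline-only regions in 8 of 14 placed members of 38 listed (57.1% against the background of 12.6%). Another 4 lay next to shared regions (28.6% against 54.5%). The germline-only members were rec-8, the meiotic cohesin subunit, mei-2, a katanin subunit of the meiotic spindle, zhp-2 and zhp-1, ring finger proteins of crossover control, the polo-like kinase gene plk-2, msh-5, syp-4 and zyg-12. Their q-values in germline replicate 2 ran from 4.64e-55 at rec-8 to 1.39e-04 at syp-4, a component of the synaptonemal complex. The shared members klp-18, brc-1, rad-51 and rad-54.L include genes of DNA repair. At rad-51, the recombinase, the q-values were 1.23e-07 and 1.88e-15 in the germline and 4.32e-19 and 7.88e-103 in the soma.

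The placed DNA replication genes were shared almost without exception. Of 28 placed members of 42 listed, 27 lay next to a shared region, or 96.4% against the background of 54.5%. The other listed members were not placed, and a gene was placed at 92.5% of shared but only 24.3% of germline-only regions. The background carries the same limit. At pcn-1, the sliding clamp PCNA, the q-values were 2.56e-55 and 1.97e-114 in the germline and 1.32e-62 and 2.68e-197 in the soma (chrIV:4049153-4050209). At mcm-2, a subunit of the replicative helicase, they were 2.38e-56 and 3.84e-152 in the germline and 4.40e-24 and 1.19e-116 in the soma. At pri-2, a primase subunit, they were 5.09e-26 and 2.19e-73 in the germline and 3.45e-110 and 5.65e-287 in the soma. All 4 EFL-1 libraries thus had a strong peak at these genes. The members next to a germline-only region were gmn-1, with 4.55e-25 and 2.23e-57 and no L1 peak, and rfc-4, a clamp loader subunit, which has a shared region at its start as well.

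Mitosis genes were shared in 33 of 42 placed members of 58 listed (78.6% against the background of 54.5%). At cyb-1, a B-type cyclin whose region also serves the origin recognition gene orc-5, the q-values were 1.27e-34 and 2.10e-83 in the germline and 2.40e-71 and 2.38e-173 in the soma. At hcp-3, the centromeric histone, they were 4.06e-66 and 1.50e-191 in the germline and 6.02e-24 and 3.19e-106 in the soma. At csc-1, of the chromosomal passenger complex, they were 5.15e-38 and 6.60e-94 in the germline and 3.73e-62 and 5.81e-164 in the soma. A further 5 members lay next to germline-only regions (11.9%, near the background), namely ani-2, cyb-2.2, cyb-2.1, cpar-1 and cdc-25.1. Some related genes of this list fell in different classes: cyb-1, hcp-3 and ani-1 were shared, and their respective relatives cyb-2.1 and cyb-2.2, cpar-1 and ani-2 were germline only. They were picked after their values were seen, and the germline-only share of the list (11.9%) is near that of all placed genes (12.6%). At cpar-1, a second centromeric histone variant, the germline q-values were 2.80e-15 and 6.76e-25, and at cyb-2.2 they were 1.27e-25 and 2.67e-72. None of the 5 regions had a peak in an L1 library, which the placement partly selects for. The region of ani-2, an anillin relative of the gonad, is also that of clec-88.

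The list of Rb/E2F, SynMuv and related chromatin genes was shared in 13 of 18 placed members of 36 listed (72.2% against the background of 54.5%). EFL-1 had peaks at lin-35, with q-values of 6.27e-22 and 7.52e-138 in the germline and 1.17e-24 and 6.77e-126 in the soma. At dpl-1 the values were 3.74e-05 and 9.87e-21 in the germline and 9.88e-10 and 4.20e-76 in the soma. The DRM subunit genes lin-9 and lin-54 had 6.74e-42 and 2.55e-23 in germline replicate 2 and 1.05e-27 and 3.41e-25 in somatic replicate 1. The strains of the series carry further copies of lin-35 or dpl-1 only where those are the tagged factor, so the EFL-1 strains have none. The Polycomb gene mes-2 had 1.38e-36 and 5.68e-78 in the germline and 4.28e-89 and 5.85e-179 in the soma. The region at lin-52, assigned with low confidence and germline only for EFL-1 with 4.72e-09 and 1.16e-34, had a peak in all 4 other somatic libraries.

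Housekeeping lists were mostly bound in both tissues or partly in both. Ribosomal protein genes lay next to shared regions in 55 of 63 placed members (87.3%), and 0 lay next to a germline-only or soma-only region. At rpl-3 the q-values were 2.07e-84 and 3.21e-182 in the germline and 1.09e-114 and 4.85e-148 in the soma. Proteasome genes were shared in 13 of 21 placed members (61.9%, near the background of 54.5%), with 0 germline only and 0 soma only. Splicing genes were shared in 12 of 21 (57.1%), close to the background of 54.5%, and 2 lay next to soma-only regions (9.52% against 4.94%). Another 5 splicing genes had somatic sites with a partial germline peak, such as eftu-2, with no peak in germline replicate 2, 8.16e-08 in germline replicate 3 and 5.74e-30 and 3.18e-144 in the soma.

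**Figure D5:**
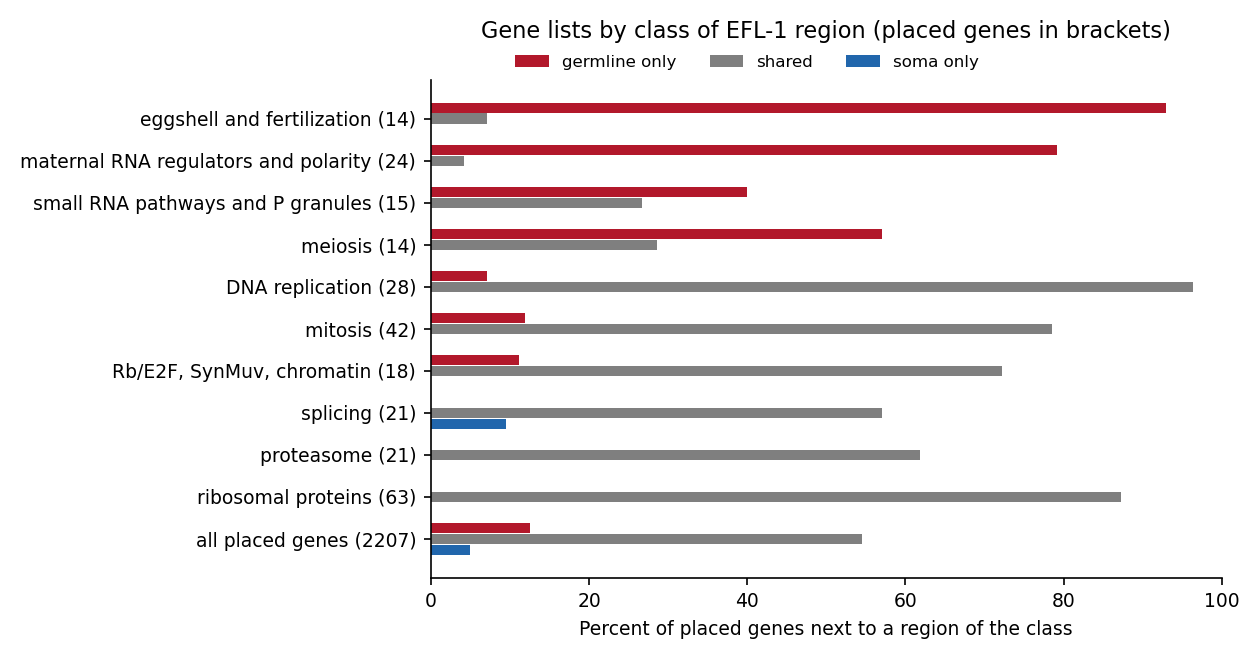
Percent of the placed members of each gene list next to a germline-only, shared or soma-only EFL-1 region (red, grey and blue bars), with the number of placed members in brackets and all 2207 placed genes at the bottom. Eggshell and maternal lists lie mostly next to germline-only regions (92.9% and 79.2% against 12.6%), and replication and ribosomal lists next to shared ones (96.4% and 87.3% against 54.5%).

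Soma-only regions next to genes were few and mostly weak. The placed region with the smallest class q-value, with 6.56e-10 and 8.25e-23 in somatic replicates 1 and 2, was assigned with low confidence to cbp-3, a relative of the acetyltransferase gene cbp-1 (chrIII:9912397-9912775). At swsn-4, the ATPase of the SWI/SNF complex, the q-values were 8.72e-10 and 1.10e-127, with no peak in either germline EFL-1 library but a peak in 2 of the 6 other germline libraries (chrIV:11125193-11126001). At ncbp-2, which encodes the small nuclear cap-binding protein, they were 8.32e-08 and 3.02e-76, with a peak in 0 of the 6 other germline, 3 of the 4 other somatic and 6 of the 9 intestinal libraries. The other soma-only splicing gene was mec-8, with 7.63e-03 and 2.66e-06. None of the 14 eggshell, 24 maternal, 15 small RNA, 14 meiosis, 28 replication or 42 mitosis genes placed lay next to a soma-only region. Of all 2207 placed genes only 4.94% did, so a count of 0 in lists of this size is near that share.

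The strongest shared regions were at cdc-48.1, rpl-3, the pair Y53F4B.11 and Y53F4B.9, rpl-35, and the pair klp-18 and cogc-2. The cdc-48.1 region had q-values of 1.09e-85 and 1.11e-148 in the germline and 1.03e-120 and 5.02e-157 in the soma. At klp-18, a kinesin of the acentrosomal meiotic spindle, they were 8.25e-86 and 5.21e-210 in the germline and 2.25e-59 and 3.18e-150 in the soma. All 4 EFL-1 libraries had strong peaks at these regions, and each of the 6 other germline and 4 other somatic libraries had one there too.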

How the data were processed

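Chromatin immunoprecipitation with anti-GFP antibody was followed by sequencing in 23 libraries of 11 strains, and the 4 EFL-1 libraries from germline and L1 soma were compared. The authors ran PeakSeq with input DNA as control and deposited the start, end and q-value of each peak, with coordinates of WormBase WS180 per the file headers. How reads were aligned is not given in the sources used. No input sample of intestine HPL-2 replicate 3 is among the labels used here. The files hold no reads, and the read numbers listed by the study were not used here, so intervals cover the counting of regions only.

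All deposited peaks were used. Peaks overlapping by at least 10 bp were merged, and regions with peaks of both replicates were sites. The 19 other libraries were compared at these regions by exact permutation tests (two-sided) over strains. Shares have Wilson intervals at 95%. Genes come from the study's assignments on chromosomes I to IV and X. On chromosome V the coordinates did not coincide and nothing was converted. Of 3624 sequence names, 3315 matched a RefSeq table (WBcel235), used for names only. Assignments of somatic EFL-1 and DPL-1 sites were held only in part. Promoter sequences were not used here, so the planned promoter search was not run.

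Up to 6 genes per list and class with the smallest q-values, the 5 strongest placed regions per class, transgene loci and genes the study names were chosen for the text. The members, lists and rules were chosen with earlier results of these data known. C05C10.5, perm-1, F35C5.1, eelo-2, C24D10.4 and mrps-9 were chosen for their listed sequences, and other genes of a list after their values were seen. Python 3.11.15, scipy 1.17.1 and numpy 2.4.6 were used, and the interval code was tested on simulated data and against bedtools 2.31.1. Alternatives were stricter q-values, other overlaps, equal list lengths, other definitions of absence and each library left out.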

Additional observations from a re-analysis of the deposited data

Results flagged for a closer look

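The 9 strains that did not define the regions separated by tissue. The percent of germline-only regions with a peak minus the percent of soma-only regions with a peak was 68.1 points higher in germline than in L1 strains (exact permutation p = 0.0238, n = 3 and 6 strains). It was 91.2 points higher in germline than in somatic libraries (adjusted exact permutation p = 0.00952, n = 6 and 4) and 54.6 points higher in germline than in intestinal libraries (adjusted exact permutation p = 0.000799, n = 6 and 9). Libraries of a strain share their line, so the p-values over libraries do not rest on independent units, and the test over strains is the one to read. The strain means ran from 9.43 (LIN-35 from mex-5) to 30 (DPL-1) in the germline, from -87.1 (DPL-1) to -59.2 (LIN-35) in the soma and from -63.6 (DPL-1) to -21 (HPL-2) in the intestine.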

How the results depend on the processing

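The tissue difference of 68.1 points stayed on its side of the threshold under every alternative run, between 34.0 and 63.1 with each EFL-1 library left out, at 73.9 without HPL-2 and at 65.9 with libraries as the units. The counts moved more. With q below 1e-05 there were 614 shared, 489 germline-only and 84 soma-only regions, and with equal list lengths 691, 535 and 380. Equal lengths with absence from all deposited peaks, chosen after seeing the data, gave 691, 401 and 56. Absence defined as no site of the other tissue gave 1664 germline-only and 381 soma-only regions. With each library left out in turn, the shared count ranged from 1084 to 1608, the germline-only count from 1125 to 4423 and the soma-only count from 149 to 1875; a class then rests on 1 library for that tissue. Counts with q below 0.001, with overlaps of 1 bp or 50% of the shorter peak, or with all 4 libraries merged at once were within 1.5 times the values above. With high-confidence gene assignments alone, eggshell genes stayed at 92.9% germline only and replication genes at 96.4% shared, while the Rb/E2F list moved from 72.2% to 92.3% shared and from 11.1% to 0% germline only. No paired analysis was possible because the germline libraries are numbered 2 and 3 and the somatic ones 1 and 2, so they share 1 number. Read depth was not part of these comparisons, and a region of 1 tissue may hold binding below the calling threshold in the other.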
